A study of Mus musculus with 8 samples.

Results

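The 7 tetraspanin genes Cd81, Cd9, Cd37, Cd53, Cd63, Cd82 and Cd151 were followed through 8 RNA-seq libraries of mouse lymphoid tissue inducer (LTi) cells. They are 7 of the 27179 genes in the deposited table, matched by Entrez Gene ID through RefSeq, and each was found on 1 row. The set was chosen by the values of Cd81, which were lower in LP than in PP in both genotypes. The difference between tissues is therefore given for these genes as a description, with no test. LTi cells are innate lymphoid cells that start the formation of lymph nodes and Peyer's patches. They were sorted from C57BL/6 mice as living lineage-negative cells that carry CD127 and CCR6 and lack KLRG1, NK1.1 and NKp46. The groups were lamina propria of the small intestine (LP) from mice with Tcf7fl/fl and a Cre driver (labelled knockout), LP from Tcf7+/+ mice (wild-type), Peyer's patches (PP) from Tcf7fl/fl mice with that driver and PP from Tcf7+/+ mice, with 2 libraries in each. The labels give no age and do not say whether the 2 libraries of a group came from separate mice. Errors and p-values thus cover the spread among the 8 libraries, which may be technical.

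Tetraspanins are small membrane proteins that cross the membrane several times and gather partner proteins into membrane microdomains. CD81 is found on B cells, T cells and innate lymphocytes. CD37 and CD53 are largely restricted to leukocytes, and CD82 (KAI1) acts on cell adhesion and is known as a suppressor of metastasis. CD9 and CD151 associate with integrins and are prominent in epithelium, platelets and other cells, while CD63 lies in late endosomes, lysosomes and secreted vesicles.

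Values are RPKM (reads normalised to gene length and sequencing depth), which can be compared between genes of different length. The depth was estimated at about 38200000 to 44000000 reads per library from genes with very few reads. The whole LTi and ILC3 marker list, 15 of 15 genes, was at or above 1 RPKM in every library, and its summed level was 7875 to 8012 and 9018 to 9176 RPKM in LP labelled knockout and wild-type, and 7748 to 7798 and 7128 to 8312 RPKM in PP labelled knockout and wild-type. Tcf7, the targeted gene, stood at 237 and 215 RPKM in LP labelled knockout, 229 and 246 in LP wild-type, 355 and 337 in PP labelled knockout, and 243 and 85.4 in PP wild-type. It was not reduced in the libraries labelled knockout, so the genotype rests on the labels. A value for the whole gene does not single out the deleted part. Of the summed RPKM, mitochondrial genes made up 13.4% and 13.6% in PP labelled knockout and 3.06% to 5.06% in the other 6 libraries. Immunoglobulin genes took 10.4% to 17.3% in LP and 2.82% to 6.42% in PP.

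The promoters of the 3 members whose LP and PP values did not overlap are shown first, since the rest of the description returns to these genes. Each is the RefSeq window on GRCm38.p6 from 250 bases before to 50 bases after an annotated start, written 5′ to 3′ on the strand of the gene. Capitals mark GGGCGG, the GC box that Sp1-family factors bind. The Cd81 window is chr7:143052500-143052799 on the plus strand, the Cd37 window is chr7:45238790-45239089 on the minus strand, and the Cd9 window is chr6:125494711-125495010 on the minus strand.
Cd81: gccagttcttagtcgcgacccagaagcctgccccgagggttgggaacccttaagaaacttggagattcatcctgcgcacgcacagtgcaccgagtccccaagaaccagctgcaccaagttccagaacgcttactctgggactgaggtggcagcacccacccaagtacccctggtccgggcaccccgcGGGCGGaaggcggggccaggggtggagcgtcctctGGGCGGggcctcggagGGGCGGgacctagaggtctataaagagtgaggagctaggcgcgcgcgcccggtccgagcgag
Cd37: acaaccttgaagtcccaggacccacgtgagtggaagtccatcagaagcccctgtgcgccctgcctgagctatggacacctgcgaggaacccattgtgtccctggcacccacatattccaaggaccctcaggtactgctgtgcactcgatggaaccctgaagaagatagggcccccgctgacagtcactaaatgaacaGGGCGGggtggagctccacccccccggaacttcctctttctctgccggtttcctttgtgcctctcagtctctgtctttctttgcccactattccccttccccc
Cd9: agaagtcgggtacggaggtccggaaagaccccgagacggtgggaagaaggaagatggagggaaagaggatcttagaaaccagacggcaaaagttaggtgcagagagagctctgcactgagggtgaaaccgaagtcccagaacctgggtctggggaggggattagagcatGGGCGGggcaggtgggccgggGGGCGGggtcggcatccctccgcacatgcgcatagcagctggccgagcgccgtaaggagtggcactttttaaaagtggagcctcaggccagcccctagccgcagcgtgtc

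The Cd81 window held 3 GC boxes, the Cd37 window 1 and the Cd9 window 2, all on the strand of the gene. In the Cd81 window they began 63, 28 and 12 bases before the start, in Cd37 at 53 bases, and in Cd9 at 81 and 60 bases before it. Windows of 5 of the 7 members held a GC box on either strand (Cd151 and Cd82 were the others), against 35.7% of all 32851 windows in the table. Cd82 had 4 windows and Cd151 had 2, which gives those genes more chances of a match. The binding motif of TCF/LEF factors, the family of the Tcf7 product, was searched on both strands as CTTTG followed by AA, AT, TA or TT. It was found in 1 member, as CTTTGTT with its first base 139 bases before the start used for Cd63, and in 16.9% of all windows. The windows of Cd37 and Cd63 lie inside the spans given below for these genes. The annotated starts used for them are thus not the 5′ ends of those spans. The shares of G and C were 65.7%, 57.7% and 61.3% in the Cd81, Cd37 and Cd9 windows, with a median of 52.7% over all windows.

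Cd81 (Entrez Gene 12520, chromosome 7, 143052750 to 143067930, plus strand, RefSeq on GRCm38.p6 as for all genes here) was the member that decided the choice. It stood at 331 and 385 RPKM in LP labelled knockout and 198 and 198 RPKM in LP wild-type. In PP it stood at 974 and 928 RPKM in libraries labelled knockout and at 866 and 656 RPKM in wild-type. All 4 LP libraries lay below all 4 PP libraries, and the lowest PP value was above the highest LP value under each scaling tried. LP held 0.376 times the PP mean in libraries labelled knockout and 0.261 times in wild-type, which are log2 fold changes of -1.41 ± 0.23 and -1.92 ± 0.23 (SE, n = 2 in each group). In these sorted bulk samples, fewer cells with the transcript and less transcript per cell cannot be told apart.

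Cd37 (Entrez Gene 12493, chromosome 7, 45233632 to 45239340, minus strand) had the same order of tissues. It stood at 275 and 228 RPKM in LP labelled knockout, 122 and 191 in LP wild-type, 466 and 419 in PP labelled knockout, and 385 and 291 in PP wild-type. Every LP value was below every PP value as deposited. Its 4 LP and 4 PP values overlapped once immunoglobulin and mitochondrial genes were left out of the library totals. The log2 fold change of LP over PP was -0.82 ± 0.32 in libraries labelled knockout and -1.13 ± 0.32 in wild-type (SE), and after median-of-ratios rescaling -0.36 and -1.47. Exons of Cd37 overlap those of Tead2 on the other strand, and Smart-seq2 keeps no strand. Tead2 was at 2.34 RPKM in LP labelled knockout replicate 1 and at 0.0124 RPKM or less in the other 7 libraries.

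Cd9 (Entrez Gene 12527, chromosome 6, 125460266 to 125494760, minus strand) went the other way. It stood at 18.6 and 25.1 RPKM in LP labelled knockout and 44 and 29.2 RPKM in LP wild-type. The PP libraries labelled knockout held 15.6 and 0.167 RPKM, and those of wild-type 0.0646 and 0.264 RPKM. All 4 LP values were above all 4 PP values, but PP labelled knockout replicate 1 came close to the lowest LP value. The low PP values correspond to about 5.11 to 23.8 reads, taking the exon length of GENCODE. Exons of Cd9 overlap those of Gm26728 on the other strand. The log2 fold change of LP over PP was 2.36 ± 1.39 in libraries labelled knockout and 4.99 ± 1.39 in wild-type (SE). The value in libraries labelled knockout was 4.28 without PP replicate 1 and 0.45 without PP replicate 2.

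Cd82 (Entrez Gene 12521, chromosome 2, 93419102 to 93462950, minus strand) was the most abundant member in every group. It stood at 1329 and 2391 RPKM in LP labelled knockout, 1631 and 1730.4 in LP wild-type, 2079 and 1962 in PP labelled knockout, and 2418 and 2181 in PP wild-type. The tissues did not overlap in wild-type and overlapped in libraries labelled knockout. For LP over PP the log2 fold change was -0.18 ± 0.26 in libraries labelled knockout, where it turned to 0.28 after median-of-ratios rescaling, and -0.45 ± 0.26 in wild-type (SE).

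Cd53 (Entrez Gene 12508, chromosome 3, 106758861 to 106790149, minus strand) stood at 247 and 301 RPKM in LP labelled knockout, 349 and 278 in LP wild-type, 292 and 273 in PP labelled knockout, and 241 and 115 in PP wild-type. The tissues overlapped in libraries labelled knockout, and in wild-type both LP values were above both PP values. The log2 fold change of LP over PP was -0.05 ± 0.39 in libraries labelled knockout, turning to 0.41 after median-of-ratios rescaling, and 0.90 ± 0.39 in wild-type (SE).

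Cd63 and Cd151 differed strongly between replicates of 1 group, as did Cd9 in PP labelled knockout. Cd63 (Entrez Gene 12512, chromosome 10, 128896231 to 128912822, plus strand) stood at 0.183 and 12.6 RPKM in LP labelled knockout, 4.84 and 0.172 in LP wild-type, 25.9 and 13.4 in PP labelled knockout, and 72.8 and 10.7 in PP wild-type. Within each genotype both LP values of Cd63 were below both PP values, while over all 8 libraries the tissues overlapped. Cd151 (Entrez Gene 12476, chromosome 7, 141467362 to 141471481, plus strand) stood at 0.165 and 2.91 RPKM in LP labelled knockout, 11.7 and 0.697 in LP wild-type, 49.8 and 0.0495 in PP labelled knockout, and 0.102 and 0.0672 in PP wild-type. Both the highest and the lowest value of Cd151 came from PP labelled knockout, and the tissues overlapped. Exons of Cd151 overlap those of Gm10575 on the other strand.

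**Figure D1:**
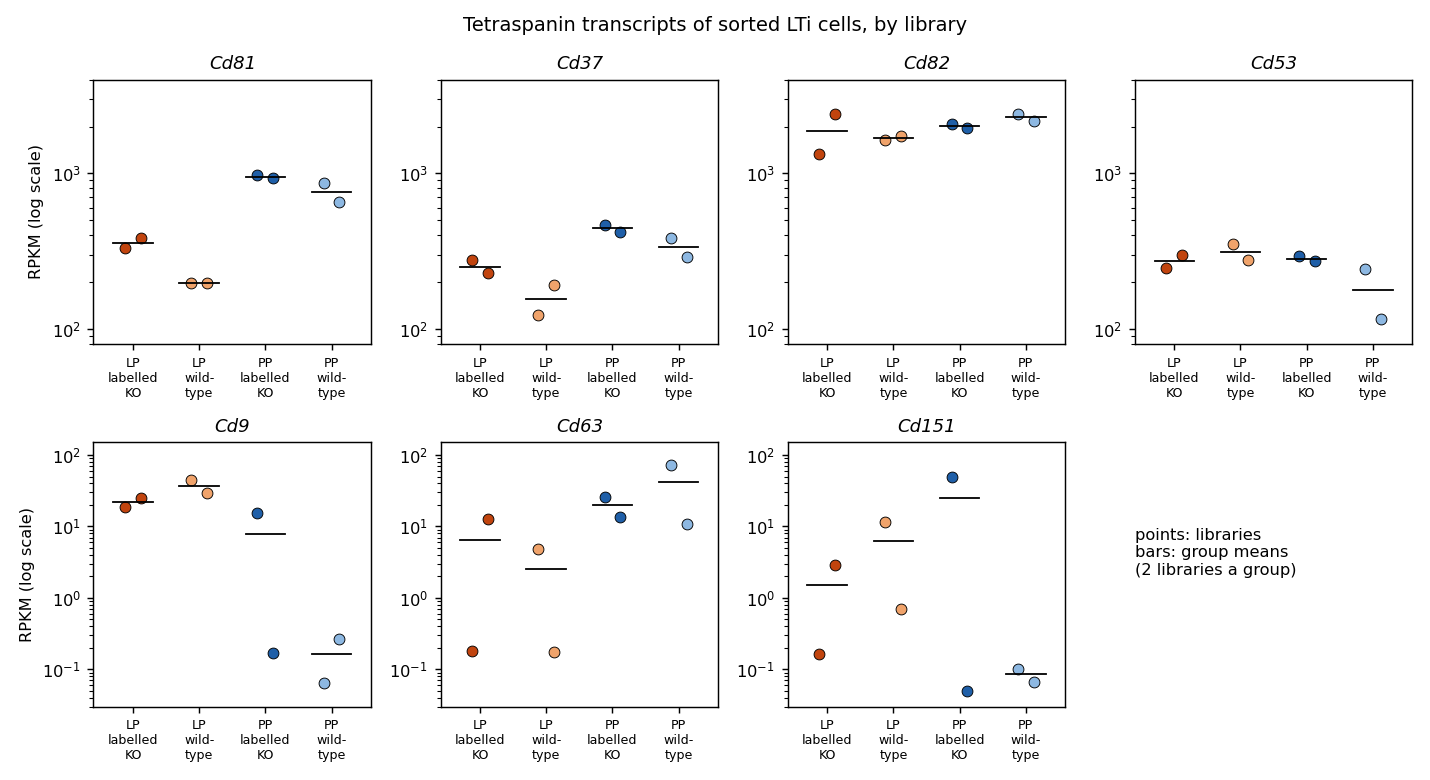
RPKM of the 7 tetraspanins (y axis, log scale; the upper and the lower row have different ranges) in each of the 8 libraries, with 2 points and a bar at the mean for each group. Cd81 and Cd37 lay lower in all 4 LP libraries than in all 4 PP libraries, and Cd9 lay higher. Cd63 and Cd151 differed strongly between replicates, as did Cd9 in PP labelled knockout.

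Counted over all 4 LP and all 4 PP libraries, 2 of the 7 members were lower in LP without overlap and 1 was higher. Of the 10541 genes that passed the filter on low values (at least 1 RPKM in at least 2 libraries, passed by 7 of 7 members), 7.05% were lower and 6.54% were higher in that sense. Within libraries labelled knockout, 3 of 7 members had both LP values below both PP values (Cd81, Cd37 and Cd63), against 28.1% of genes. Within wild-type there were 4 of 7 (these and Cd82), against 21.4% of genes. The members were chosen on this comparison, so nothing is read from these shares. The median log2 fold change of LP over PP was -0.82 over the members and -0.29 over all genes in libraries labelled knockout, and -0.45 over the members and 0.09 over all genes in wild-type.

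The order of the members by level differed between the tissues. Cd82 made up 67.1% and 70.2% of the summed RPKM of the 7 members in LP labelled knockout and wild-type, and 53.9% and 63.5% in PP. Cd81 was the second in PP, at 25.4% of the sum in libraries labelled knockout and 21% in wild-type, with both libraries above the next member, Cd37. In LP wild-type Cd53 was the second, at 13.1%, and Cd81 the third, at 8.28%, with values that did not overlap. In LP labelled knockout Cd81 was the second, at 12.9%, and Cd53 and Cd37 overlapped behind it. Cd9 was the fifth in both LP groups. Among the lowest members, Cd63 and Cd151 overlapped in LP, all neighbours among Cd151, Cd63 and Cd9 overlapped in PP labelled knockout, and Cd9 and Cd151 overlapped in PP wild-type.

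Ratios of members within a library do not depend on how libraries are scaled against each other. The ratio of Cd81 to Cd82 was 0.249 and 0.161 in LP labelled knockout, 0.122 and 0.115 in LP wild-type, 0.468 and 0.473 in PP labelled knockout, and 0.358 and 0.301 in PP wild-type. The ratio of Cd37 to Cd53 was 1.12 and 0.757 in LP labelled knockout, 0.35 and 0.685 in LP wild-type, 1.59 and 1.54 in PP labelled knockout, and 1.6 and 2.53 in PP wild-type. The ratio of Cd81 to Cd53 was 0.568 to 1.34 in LP and 3.33 to 5.71 in PP, and that of Cd81 to Cd37 was 1.04 to 1.69 in LP and 2.09 to 2.25 in PP. All 4 ratios computed were lower in all 4 LP libraries than in all 4 PP libraries. All but Cd37 to Cd53 have Cd81 on top, the gene chosen for its lower values in LP. The remaining ratio sets Cd37, also lower in LP, over Cd53. The shared order is therefore a description, and nothing is read from it. Between genotypes the ratios of Cd81 did not share an order. In PP, Cd81 to Cd82 was higher in libraries labelled knockout than in wild-type without overlap, while Cd81 to Cd53 (3.33 and 3.4 against 3.59 and 5.71) and Cd81 to Cd37 (2.09 and 2.21 against 2.25 and 2.25) were lower. In LP, Cd81 to Cd82 and Cd81 to Cd53 were higher in libraries labelled knockout and Cd81 to Cd37 overlapped.

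**Figure D2:**
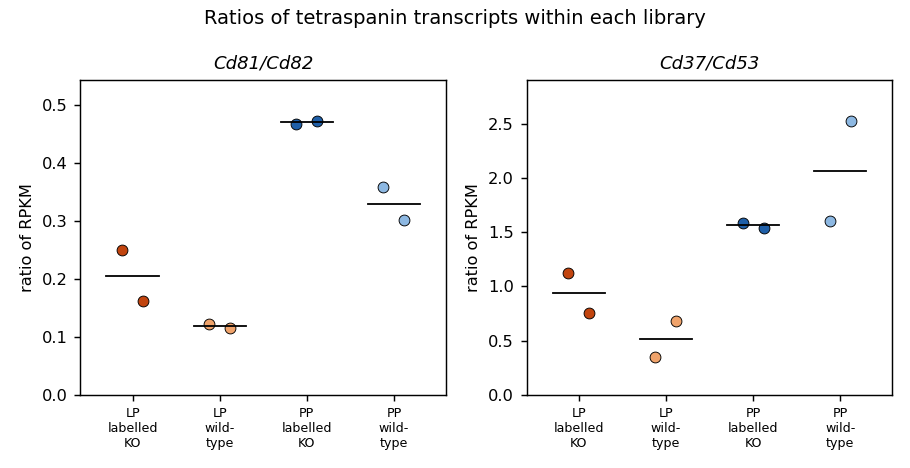
Ratio of the RPKM of Cd81 to that of Cd82 (left) and of Cd37 to that of Cd53 (right) within each library (y axis, from 0), with 2 points and a bar at the mean for each group. The 4 LP libraries lie below the 4 PP libraries in both, between 0.115 and 0.249 against 0.301 to 0.473 for Cd81 to Cd82. Cd81 was chosen for its lower values in LP, so this order is a description only.

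The members differed widely in how well replicates agreed. The spread between replicates, pooled over the 4 groups on the log2 scale, was 0.16 for Cd81, 0.29 for Cd37, 0.31 for Cd82 and 0.41 for Cd53, against a median of 1.28 over all genes kept. It was 1.38 for Cd9, 1.79 for Cd63 and 2.31 for Cd151. Only 1.79% of genes kept had a smaller spread than Cd81, and 90.3% had a smaller spread than Cd151. The higher replicate of Cd151 in PP labelled knockout was 1010 times the lower. For Cd9 in PP labelled knockout it was 93.2 times, and for Cd63 in LP labelled knockout 68.5 times.

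The comparison of genotypes was not used to choose the members and was tested with limma over all 10541 genes. In PP, 0 of 7 members passed at an adjusted p under 0.05, against 0.36% of all genes, and 0 of 7 had an unadjusted p under 0.05, against 11.4% of all genes. In LP, 0 of 7 passed, against 0.0285% of all genes, and 1 of 7 (Cd81) had an unadjusted p under 0.05, against 5.27% of all genes. Cd81 averaged 358 ± 38.5 RPKM in LP labelled knockout and 198 ± 0.0218 RPKM in LP wild-type (SD, n = 2), a log2 fold change of 0.84 ± 0.23 (SE) with a 95% interval of 0.30 to 1.39 and a limma adjusted p of 0.497. In PP it averaged 951 ± 32.2 RPKM in libraries labelled knockout and 761 ± 148 RPKM in wild-type (SD, n = 2), a log2 fold change of 0.33 ± 0.23 with an interval of -0.21 to 0.88 and a limma adjusted p of 0.693. Without overlap, both libraries labelled knockout were above both wild-type libraries in each tissue. Rescaling without immunoglobulin and mitochondrial genes kept this order in both tissues. In PP, however, the order turned round after median-of-ratios rescaling, which gave a log2 fold change of -0.24. That rescaling moved the median of all genes in PP to -0.06, against 0.16 as deposited, and in the tissue comparison of libraries labelled knockout to 0.01, against -0.29 as deposited. For the interaction it moved to 0.17, against -0.39 as deposited.

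Cd37 showed the same order, at 251 ± 33.8 RPKM in LP labelled knockout and 156 ± 48.6 RPKM in LP wild-type (log2 fold change 0.71, 95% interval -0.05 to 1.48). In PP it averaged 443 ± 32.7 RPKM in libraries labelled knockout and 338 ± 66.6 RPKM in wild-type (SD, n = 2 each). That is a log2 fold change of 0.40 with an interval of -0.37 to 1.16, and it turned to -0.18 after median-of-ratios rescaling. The values of Cd37 in PP overlapped under that rescaling. They did not overlap after rescaling without immunoglobulin and mitochondrial genes. Of all genes, 3.92% were higher in libraries labelled knockout without overlap in both tissues as deposited, and 2 of the 7 members were. The average of the effects in LP and PP, computed after these values were seen, was 0.59 ± 0.16 for Cd81 (95% interval 0.21 to 0.97, limma adjusted p = 0.293) and 0.56 ± 0.23 for Cd37 (0.01 to 1.10, limma adjusted p = 0.513). It was passed by 0 of 7 members and by 0.152% of all genes, and 2 of 7 (Cd81 and Cd37) had an unadjusted p under 0.05, against 9.33% of all genes. The labels do not say whether LP and PP libraries share mice, and the fit takes them as independent.

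Cd53 was higher in PP labelled knockout than in PP wild-type without overlap as deposited, at 283 ± 13.4 RPKM against 178 ± 89.2 RPKM in wild-type (SD, n = 2 each; log2 fold change 0.76, 95% interval -0.17 to 1.69). The values of Cd53 in PP overlapped after median-of-ratios rescaling, at a log2 fold change of 0.18. It was 1.29 without PP wild-type replicate 1 and 0.23 without PP wild-type replicate 2. In LP it overlapped between genotypes (-0.19, interval -1.12 to 0.74). Cd82 was lower in PP labelled knockout without overlap, at 2020.1 ± 82.8 RPKM against 2299 ± 168 RPKM in wild-type (-0.19, interval -0.79 to 0.42), and overlapped in LP (0.09, interval -0.52 to 0.69). In PP it overlapped after rescaling without immunoglobulin and mitochondrial genes. After median-of-ratios rescaling the value of Cd82 in PP was -0.76 ± 0.21 (SE, limma adjusted p = 0.175). For Cd9, Cd63 and Cd151 the intervals were wide. They ran from -3.99 to 2.58, -3.21 to 4.44 and -5.69 to 3.45 in LP, and from -1.36 to 5.21, -4.41 to 3.25 and -1.82 to 7.32 in PP. A p that misses the threshold does not show equal levels, least of all for these 3 genes.

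**Figure D3:**
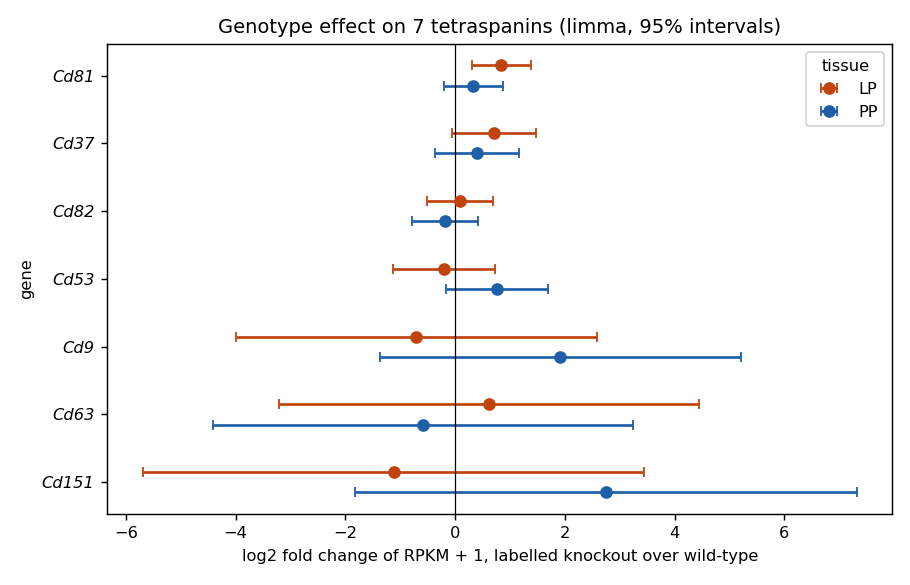
Log2 fold change of RPKM + 1 of libraries labelled knockout over wild-type (x axis) for each of the 7 tetraspanins (y axis), in LP and in PP, with 95% intervals from limma. The interval of Cd81 in LP, 0.30 to 1.39, is the one that does not cross 0, and its adjusted p over all genes was 0.497.

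The effect of genotype was also compared between the tissues, which is the same as the effect of tissue compared between genotypes. This interaction was passed by 0 of 7 members, against 0.0285% of all genes, and 0 of 7 had an unadjusted p under 0.05, against 8.75% of all genes. For Cd81 it was 0.51 ± 0.32 (95% interval -0.25 to 1.28, limma adjusted p = 0.721), and for Cd37 0.31 ± 0.46 (interval -0.77 to 1.39). After median-of-ratios rescaling it was 1.31 ± 0.32 for Cd81 (limma adjusted p = 0.286) and 1.11 ± 0.49 for Cd37 (limma adjusted p = 0.502). Neither passed under any setting, and the size of the difference between genotypes depends on the scaling.

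Among the other 25 tetraspanins listed, 24 were in the table and 7 passed the filter on low values: Tspan32, Tspan13, Tspan31, Tspan14, Tspan3, Tspan4 and Tspan8. Of these 7, 0 passed in either direction for genotype in LP, genotype in PP, the interaction, or tissue in either genotype, where 2% of all genes passed in libraries labelled knockout and 2.13% in wild-type. At an unadjusted p under 0.05 there were 1 for genotype in LP, 0 for genotype in PP and 0 for the interaction. Over all genes these shares were 5.27%, 11.4% and 8.75%. For tissue there were 3 in libraries labelled knockout and 2 in wild-type, against 14.7% and 17% of all genes. Tspan32 and Tspan3 were lower in all 4 LP libraries than in all 4 PP libraries, though Tspan3 overlapped after median-of-ratios rescaling. As deposited, 2 of the 7 were thus lower without overlap and 0 higher, against 7.05% and 6.54% of all genes. The summed RPKM of the 24 genes was 201 to 359 in LP labelled knockout, 261 to 344 in LP wild-type, 653 to 785 in PP labelled knockout and 744 to 796 in PP wild-type.

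Tspan32, which encodes a tetraspanin of haematopoietic cells, lies 33264 bases from Cd81 on chromosome 7 (143004907 to 143019486). It stood at 48.9 and 29.3 RPKM in LP labelled knockout, 54.6 and 53 in LP wild-type, 324 and 100.5 in PP labelled knockout, and 186 and 217 in PP wild-type. LP lay below PP in each genotype, by a log2 fold change of -2.22 ± 0.61 (limma adjusted p = 0.146) in libraries labelled knockout and -1.88 ± 0.61 (limma adjusted p = 0.181) in wild-type, and neither passed. Exons of Tspan32 overlap those of Tspan32os on the other strand. The gene on the other side of Cd81, Tssc4, begins 486 bases away. It stood at 12.7 and 33.2 RPKM in LP labelled knockout, 0.224 and 13 in LP wild-type, 0.223 and 49.9 in PP labelled knockout, and 0.129 and 95.1 in PP wild-type, and the tissues overlapped. R74862, whose exons overlap those of Cd81 on the other strand, stayed at or under 9.07 RPKM.

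Tspan4 stood at 0.242 and 0.162 RPKM in LP labelled knockout and 13 and 28.3 RPKM in LP wild-type. That is a log2 fold change of -4.08 ± 1.18 (SE) with a limma adjusted p of 0.569. In PP it stood at 12.6 and 35.3 RPKM in libraries labelled knockout and 157 and 21.2 RPKM in wild-type, which overlapped. Exons of Tspan4 overlap those of the protein-coding gene Chid1 on the other strand. Tspan13 stood at 107 and 148 RPKM in LP labelled knockout, 112 and 128 in LP wild-type, 86.6 and 246 in PP labelled knockout, and 157 and 222 in PP wild-type. Tspan14 reached at most 108 RPKM and Tspan31 at most 214 RPKM, both in PP. Tspan8 reached at most 23 RPKM, in LP labelled knockout. Of those that did not pass the filter, Tspan1, Tspan5, Rom1 and Upk1a averaged at least 5 RPKM in 1 group, each through 1 library alone.

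**Figure D4:**
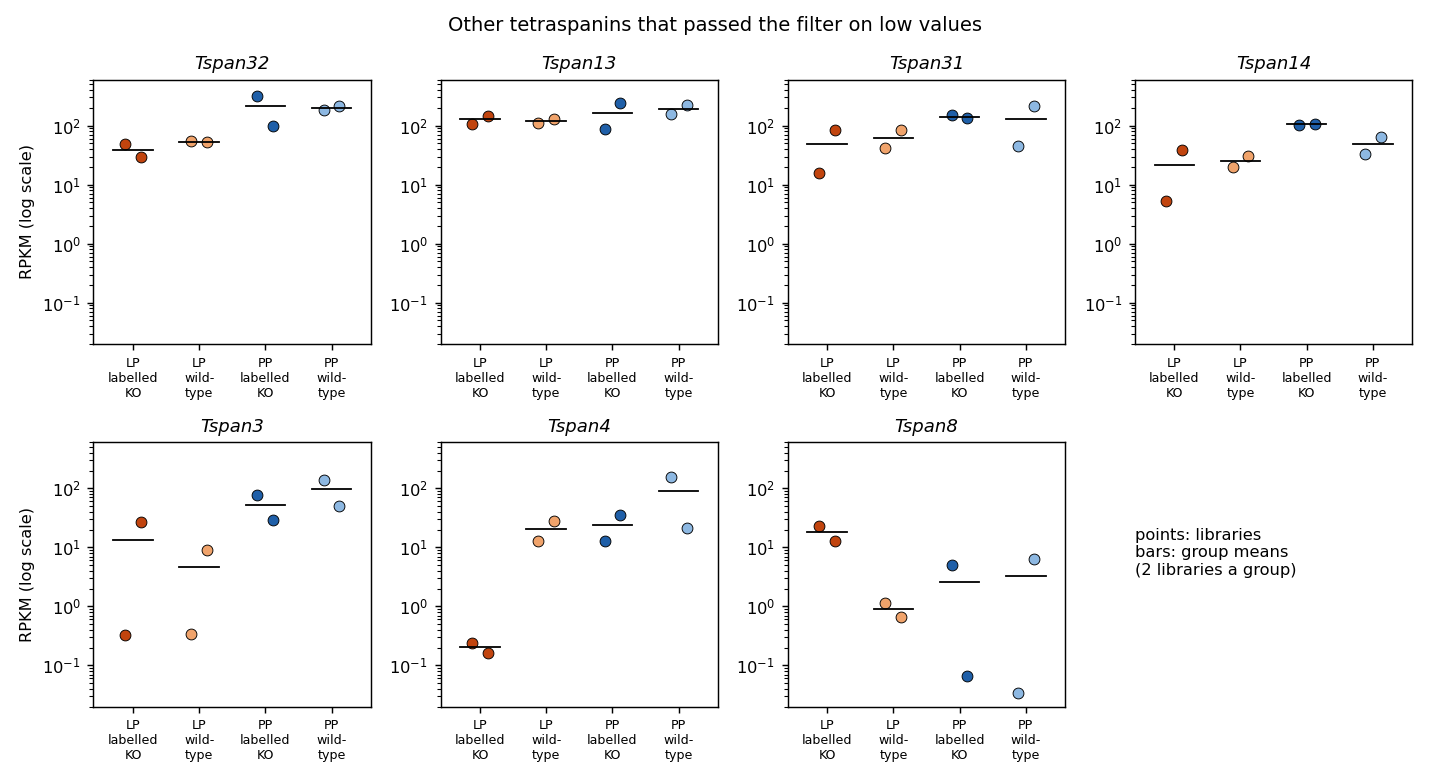
RPKM (y axis, log scale) of the 7 other tetraspanins that passed the filter on low values, in each of the 8 libraries, with 2 points and a bar at the mean for each group. Tspan32 lay at 29.3 to 54.6 RPKM in LP and 100.5 to 324 RPKM in PP, while Tspan13 and Tspan31 overlapped between the tissues.

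The partners of tetraspanins, a list of 22 genes, had 19 that passed the filter. Of these, 0 passed for genotype in LP, genotype in PP, the interaction or tissue in either genotype. At an unadjusted p under 0.05 there were 1, 3 and 2 for genotype in LP, genotype in PP and the interaction, against 5.27%, 11.4% and 8.75% of all genes. For tissue there were 3 in libraries labelled knockout and 4 in wild-type, against 14.7% and 17% of all genes. Igsf8, which encodes a direct partner of CD81 and CD9, stood at 1.23 and 22.6 RPKM in LP labelled knockout, 17 and 8.5 in LP wild-type, 23.1 and 0.0668 in PP labelled knockout, and 0.069 and 0.101 in PP wild-type. Ptgfrn, a related partner, stayed at or under 0.103 RPKM in every library. Of the interferon-induced membrane proteins that associate with CD81, Ifitm2 ranged from 11.5 to 106 RPKM and Ifitm1 was under 1 RPKM in 6 of the 8 libraries. Ifitm3 stood at 0.44 and 49.4 RPKM in LP labelled knockout, 36.2 and 0.276 in LP wild-type, 0.12 and 0.192 in PP labelled knockout, and 45.1 and 66.5 in PP wild-type. Its replicates disagreed in LP, and in PP both libraries labelled knockout were below both wild-type libraries (log2 fold change -5.59 ± 2.10, limma adjusted p = 0.358).

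Among integrin partners, Itgb7, the beta chain of the gut-homing integrins, stood at 103 and 100.3 RPKM in LP labelled knockout, 174 and 143 in LP wild-type, 209 and 235 in PP labelled knockout, and 420 and 335 in PP wild-type. All LP values of Itgb7 lay below all PP values, while Icam1, an adhesion ligand, was above in all 4 LP libraries, at 186 to 329 RPKM against 108 to 166 RPKM in PP. Both were named after their values were seen, and neither passed. Of the 19 partners, 1 was lower and 1 higher without overlap, near the 7.05% and 6.54% of all genes. Itgb1 ranged from 1.81 to 37.9 RPKM, Itga4 from 3.73 to 26.2 RPKM, and Itga6 reached 5.43 and 4.65 RPKM in LP wild-type and at most 0.037 RPKM in the other 6 libraries. Kit, a receptor found with several tetraspanins, ranged from 99.9 to 253 RPKM and overlapped between the tissues over the 8 libraries. Adam10, the protease that some tetraspanins escort, was between 0.0668 and 39.4 RPKM.

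Of 17 endosome and vesicle genes, listed because CD63 resides there, 16 passed the filter. In each genotype 1 passed the test of tissue, against 2% of all genes in libraries labelled knockout and 2.13% in wild-type. That gene was Lamp1 in both, which encodes a main lysosomal membrane protein. It stood at 91.9 and 196 RPKM in LP labelled knockout, 136 and 128 in LP wild-type, 768 and 658 in PP labelled knockout, and 606 and 578 in PP wild-type. Lamp1 fell in LP by 2.40 on the log2 scale in libraries labelled knockout (limma adjusted p = 0.0363) and by 2.15 in wild-type (limma adjusted p = 0.0427). Leaving out a single library ended the call in at least 1 genotype for each of the 8 libraries except LP labelled knockout replicate 2, and over all alternatives the adjusted p ran up to 0.225 and 0.201. Flot1 was the other gene of the list with all LP values below all PP values. That makes 2 of 16 lower without overlap and 0 higher, against 7.05% and 6.54% of all genes. Sdcbp, the CD63-binding adaptor of vesicle formation, ranged from 144 to 299 RPKM in LP and from 172 to 232 RPKM in PP. For genotype in LP, genotype in PP and the interaction, 0 of these 16 genes passed, and 0, 4 and 2 had an unadjusted p under 0.05. Over all genes the unadjusted shares were 5.27%, 11.4% and 8.75%.

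The genes whose values were most like those of Cd81 were found by the root mean square difference of log2(RPKM + 1) over the 8 libraries, after removing the mean of each gene. Among 7213 genes averaging 5 RPKM or more, the 5 closest were Podnl1 (0.182), Capg (0.193), Coro1a (0.248), S100a11 (0.254) and Trib2 (0.259). They were picked by their values in these same libraries, so their order of tissues follows from the choice and nothing is read from it. Capg, which encodes an actin-capping protein, stood at 180.1 and 194 RPKM in LP labelled knockout, 122 and 143 in LP wild-type, 655 and 697 in PP labelled knockout, and 628 and 439 in PP wild-type. Coro1a, which encodes an actin regulator of leukocytes, stood at 261 and 222 RPKM in LP labelled knockout, 195 and 180.3 in LP wild-type, 661 and 596 in PP labelled knockout, and 662 and 423 in PP wild-type. Among members, Cd37 was the closest to Cd81 (0.405, the 39th of these genes), then Cd82 (0.769) and Cd53 (1.13). Cd9 was the most distant, at 2.95.

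**Figure D5:**
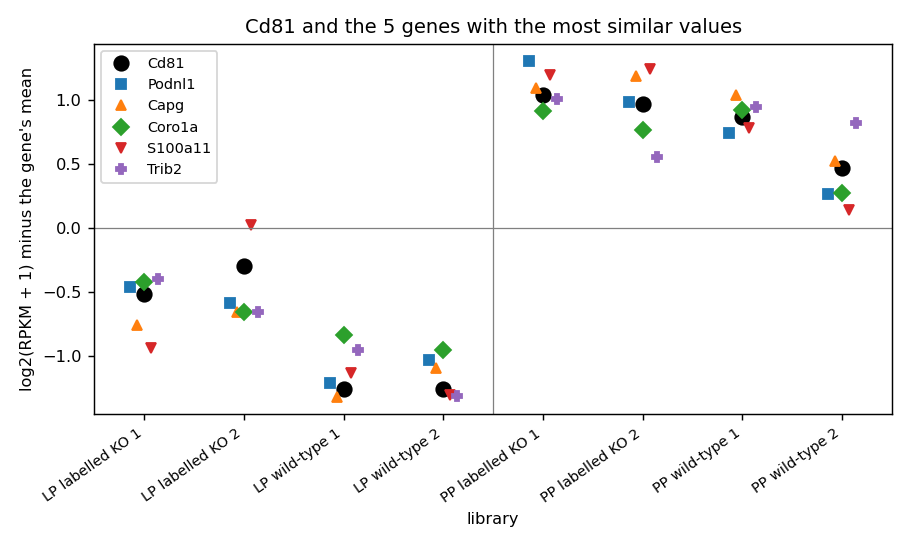
Log2(RPKM + 1) minus the mean of each gene over the 8 libraries (y axis) for Cd81 and the 5 genes closest to it, in each library (x axis). Cd81 and the other genes lie below 0 in the LP libraries, except S100a11 in LP labelled knockout replicate 2, and above 0 in all PP libraries. The 5 genes were picked for this likeness, so the shared order follows from the choice.

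Markers of other cells were set beside these values. B and plasma cell markers, with 7 to 10 of 14 genes at 1 RPKM or more, summed to 1284 to 1334 RPKM in LP labelled knockout, 1354 to 2070 in LP wild-type, 791 to 832 in PP labelled knockout and 818 to 891 in PP wild-type, higher in LP where Cd81 and Cd37 were lower. The sum in LP came mostly from Jchain and Xbp1, listed for plasma cells, at 589 to 1180 and 390 to 582 RPKM. In PP they stood at 101 to 285 and 164 to 215 RPKM. Mzb1, Sdc1, Prdm1 and Derl3, also listed for plasma cells, overlapped between the tissues. Derl3 stood at 64.7 and 53.7 RPKM in PP wild-type and at most at 16.7 RPKM in LP. Ms4a1, which marks B cells, stood at 0.0694 and 0.0619 RPKM in LP labelled knockout, 0.0633 and 0.0497 in LP wild-type, 16.3 and 0.0605 in PP labelled knockout, and 0.399 and 29.1 in PP wild-type. It thus reached 1 RPKM only in 2 PP libraries, the tissue in which Cd81 and Cd37 were higher. Cd79b, also of B cells, was lower in all 4 LP libraries, at 32.4 to 44.2 RPKM against 49.3 to 266 RPKM in PP. T cell markers summed to 177 to 417, 178 to 233, 577 to 593 and 556 to 557 RPKM in the same order of groups, higher in PP as Cd81 and Cd37 were, with 3 to 6 of 10 genes at 1 RPKM or more. Cd4, which LTi cells can also express, was on that list, at 48.7 to 180.4 RPKM in LP and 170 to 318 RPKM in PP. Lat, also listed, stood at 99 to 202 RPKM in LP and 169 to 342 RPKM in PP. Cd3d, Cd3e and Cd3g each overlapped between the tissues. In PP wild-type replicate 1 they were at 0.0772, 0.179 and 0.326 RPKM, beside Cd4 at 170 RPKM and Lat at 342 RPKM. Cd247 and Foxp3 were under 1 RPKM in every library. Epithelial markers summed to 218 to 425 RPKM in LP labelled knockout, 125 to 339 in LP wild-type, 533 to 623 in PP labelled knockout and 156 to 169 in PP wild-type. The highest sum, 623 RPKM, was in PP labelled knockout replicate 2, where Cd9 was at 0.167 RPKM. The lowest, 125 RPKM, was in LP wild-type replicate 1, where Cd9 was at 44 RPKM, its highest value. This list also holds Tspan8, Epcam and Cldn7, which stand on other lists here. Its count at 1 RPKM or more was 9 to 11 of 14 in LP and in PP labelled knockout, where Cd9 reached 15.6 RPKM or more in 5 of 6 libraries, and 4 or 5 in PP wild-type, where Cd9 was near 0. The 2 PP wild-type libraries also had fewer genes at 1 RPKM or more in all, 6365 and 6411 against 7437 to 8433 in the other 6. The part of this in the near-0 values of Cd9, Cd151 and Igsf8 there was not tested. Myeloid markers reached at most 99.9 RPKM with 0 to 4 of 12 genes at 1 RPKM or more, and stromal and endothelial markers at most 205 RPKM with 2 of 10. NK cell and ILC1 markers summed to at most 201 RPKM with 1 to 4 of 7 genes at 1 RPKM or more, in LP mainly Klrk1 and Gzma, and Ncr1 and Eomes were at 0 in every library. ILC2 markers summed to 117 to 216 RPKM in LP and at most 18.9 RPKM in PP, with 0 to 2 of 6 genes at 1 RPKM or more. Of the LP sum 90.9 to 204 RPKM was Areg, while Il5 and Il13 were at 0 in every library. The part of other cells in the differences of Cd81, Cd37 and Cd9 was not tested.

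Genes of LTi identity also differed between the tissues. Of the 15 on that list, 7 were lower in all 4 LP libraries than in all 4 PP libraries, among them Ltb and Thy1, and 2 were higher, Tnfsf11 and Il22. Over all genes that passed the filter, 7.05% were lower and 6.54% higher in that sense. Ltb, which encodes lymphotoxin beta, stood at 557 and 262 RPKM in LP labelled knockout, 578 and 505 in LP wild-type, 2063 and 1889.9 in PP labelled knockout, and 1839 and 2248 in PP wild-type. It fell in LP by 2.37 on the log2 scale in libraries labelled knockout (limma adjusted p = 0.0278) and by 1.91 in wild-type (limma adjusted p = 0.0448). Over the alternatives the adjusted p ran up to 0.225 and 0.223, and leaving out any of LP wild-type replicate 1 or 2 or PP labelled knockout replicate 1 or 2 ended both calls. Leaving out PP wild-type replicate 1 or 2 ended the call in wild-type. Ltb moved in the direction of Cd81 and Cd37, and its part in their difference was not tested.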

How the data were processed

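RNA-seq was made from sorted LTi cells in 8 libraries, 4 groups of 2, with total RNA and Smart-seq2 per the labels' protocols. The authors deposited 1 table of RPKM on a log scale for 27179 genes with Entrez IDs. The tools named in the submitters' processing notes are featureCounts and Subread, with the build mm10. For the aligner, versions, annotation and strandedness, no source used here gives a name or value. The deposited values were read as log2(RPKM + 1), because RPKM times exon length in kilobases then summed to about 1380000 to 1550000 per library, while natural logs gave 16300000 to 21500000. RPKM was computed as 2 to the power of the deposited value, minus 1, and the log value 0.0001, the lowest written, was taken as 0 RPKM. RefSeq GRCm38.p6 matched 25275 IDs.

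The deposited RPKM are not counts, so limma 3.58.1 (R 4.3.3) was run on log2(RPKM + 1) over all 4 groups, with an intensity trend and Benjamini-Hochberg adjustment over the 10541 genes at 1 RPKM or more in at least 2 libraries. The fit was tested on simulated data. This scale understates changes of low genes. The members and gene lists were chosen with earlier results of these data known. The rule for named genes took the members, Tcf7, other tetraspanins with a group mean of at least 5 RPKM, a fixed set of partners, listed partners and vesicle genes that passed a test, and the 5 genes most like Cd81. Itgb7, Icam1, Flot1, Ltb, the neighbours of Cd81 and the average over tissues were added after values were seen. Alternatives changed the pseudocount, the filter, the scaling, the samples fitted, the replicate block and the libraries left out. Some genes of the lists are not reported here.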

Additional observations from a re-analysis of the deposited data

How the results depend on the processing

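No member passed a test of genotype, interaction or average genotype under any alternative. The tissue difference of Cd81 ran from -1.52 to -0.95 in libraries labelled knockout and from -2.26 to -1.72 in wild-type, and its genotype difference in LP from 0.74 to 1.06 (lowest adjusted p 0.332). After median-of-ratios rescaling the sign turned for Cd81 (-0.24) and Cd37 (-0.18) between genotypes in PP, Cd53 (0.026) and Tcf7 (0.15) between genotypes in LP, Cd53 (0.41) and Cd82 (0.28) between tissues in libraries labelled knockout, and Cd63 (-0.23) in the average genotype. Cd63 also turned with a pseudocount of 5 (-0.066), and Cd82 without immunoglobulin and mitochondrial genes (0.013), both in the average genotype. Leaving out 1 library gave ranges that cross 0. For genotype in PP these were -0.047 to 5.55 (Cd151) and -1.91 to 0.75 (Cd63). For genotype in LP they were -1.14 to 2.37 (Cd63), -0.34 to 0.51 (Cd82) and -2.57 to 0.33 (Cd151). For the interaction they were -0.57 to 2.95 (Cd63), -0.15 to 0.69 (Cd82) and -0.0088 to 0.63 (Cd37). For tissue in libraries labelled knockout they were -0.19 to 0.089 (Cd53), -0.60 to 0.24 (Cd82) and -4.57 to 1.02 (Cd151). For the average genotype they were -0.26 to 0.16 (Cd82), -0.86 to 0.90 (Cd63), -0.35 to 1.56 (Cd9) and -0.58 to 2.21 (Cd151). Members lower in LP without overlap in libraries labelled knockout numbered 3, against 28.1% of genes, and 5 without LP labelled knockout replicate 2. With a library left out, non-overlap is easier for any gene. The share of all genes was not computed for that setting, so nothing is read from the 5. The cause of these changes was not tested. Same-numbered libraries of different groups did not deviate together (r from -0.02 to 0.01 over 10541 genes), so the numbers were not used as pairs; the labels do not say whether mice or batches were shared, and this r does not settle it. With the replicate block, 0 members passed as before, and all genes called were 16 for genotype in PP, 0 in LP, 1 for the interaction and 5 for the average, against 38, 3, 3 and 16 without it. With no filter on low values they were 96, 49, 101 and 116, and with only the 2 groups fitted 0 in PP and 0 in LP (1139 and 830 at an unadjusted p under 0.05). With 2 libraries a group, the spread of Cd9, Cd63 and Cd151 limits what can be seen.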
